A study of Mus musculus with 13 samples.

Results

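The 10 genes described here encode the best-known receptors and bridging molecules of efferocytosis, the uptake of dying cells by phagocytes: Mertk, Axl, Tyro3, Gas6, Pros1, Mfge8, Stab1, Cd36, Lrp1 and Elmo1. They were chosen by gene symbol for this known function, and all 10 were among the 14911 genes measured. Messenger RNA was sequenced from whole hamstring muscle of female C57BL/6 mice on day 4 after an intramuscular injection of cardiotoxin, a venom toxin that kills muscle fibres, at 0.32 mg/kg. Every mouse was injured. The 4 mice of the control group then received saline intraperitoneally once a day, and the 9 mice of the other group received dexamethasone, a synthetic glucocorticoid, at 10 mg/kg. Each library came from 1 mouse. The submitters found heterotopic ossification, bone formed inside the muscle, in every dexamethasone mouse, and they left out the only saline mouse that had it. Effects of the drug and of bone formation cannot be told apart here.

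In some libraries cell type markers stood apart. Saline library 1 had a summed level of 6 myofibre markers of 141517 CPM, against 94674 to 113574 in the other 3 saline libraries. Its 10 largest genes held 20.1% of its reads, against 15.4% to 17.4% in those 3. Saline library 3 had a summed level of 6 neutrophil markers of 206 CPM (reads of the genes, scaled to a common library size), against 22.7 to 30.5 in the other 3 saline libraries. Dexamethasone library 4 had a summed level of 5 resident macrophage markers of 821 CPM, against 427 to 571 in the other 8.

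Dying cells expose phosphatidylserine, a lipid otherwise kept on the inner side of the membrane. Secreted bridging proteins bind this lipid with one end and a receptor on the phagocyte with the other, and the receptor then signals through Rac to wrap the membrane around the dying cell. In injured muscle, macrophages clear neutrophils and fibre debris in this way and change from an inflammatory to a reparative state while doing so. In cultured macrophages glucocorticoids are known to raise Mertk and the uptake of dying cells.

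The 10 genes did not move together. Cd36, Stab1 and Lrp1, which encode multi-ligand scavenger and endocytic receptors, rose 1.94-fold, 1.65-fold and 1.59-fold in dexamethasone-treated mice. Pros1, which encodes the bridging molecule protein S, rose 1.27-fold. Axl, a receptor tyrosine kinase, rose 1.13-fold, at the edge of the test. Mertk, Tyro3, Gas6, Mfge8 and Elmo1 did not pass. In all, 5 of the 10 were higher and 0 lower at an adjusted p of 0.05 (limma, Benjamini-Hochberg over all genes). Over all genes 48.1% were called, 25.2% as higher and 22.9% as lower, so the share of the 10 that was called is near that of any gene. Of the genes not called, Mertk alone had an unadjusted p under 0.05, at 0.0245 (limma), with a lower level in treated mice. Mertk passed as lower in the authors' deposited comparison (adjusted p 0.0426). Run on the recovered reads, voom in limma also called Mertk lower (adjusted p 0.0414). The groups did not overlap for 4 of the 10 genes, against 25.8% of all genes. With saline library 3 and dexamethasone library 4 both left out, 4 of the 10 were called higher (Pros1, Stab1, Cd36 and Lrp1) and 1 lower (Mertk), against 22.8% and 20.3% of all genes in that fit (43.1% called in all). The median log2 fold change was 0.16 over the 10 and 0.0071 over all genes tested.

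**Figure D1:**
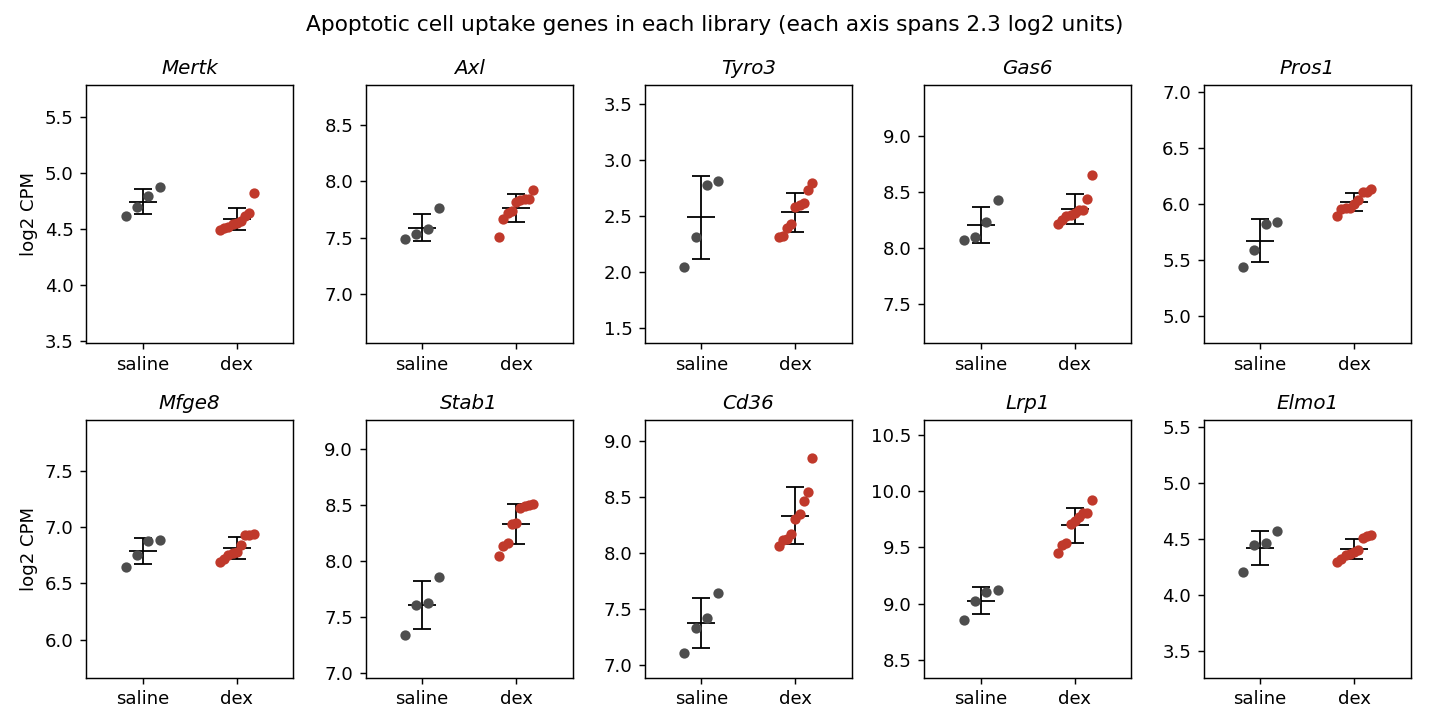
Log2 CPM (y axis) of each gene in the 4 saline libraries (grey) and the 9 dexamethasone libraries (red); each point is 1 mouse, and bars give the mean and SD. Every dexamethasone library lies above every saline library for Pros1, Stab1, Cd36 and Lrp1, while the groups overlap for the other genes.

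**Figure D2:**
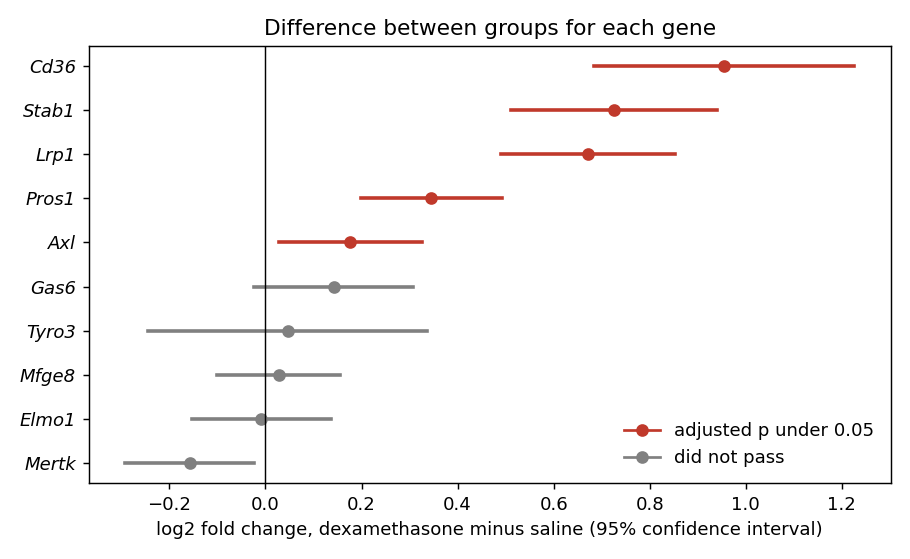
Log2 fold change of dexamethasone against saline with its 95% confidence interval for each of the 10 genes, sorted by size. Cd36, Stab1 and Lrp1 stand at 0.96, 0.73 and 0.67, and the intervals of Tyro3, Gas6, Mfge8 and Elmo1 include 0.

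Mertk, Axl and Tyro3 form the TAM family of receptor tyrosine kinases, which recognise phosphatidylserine through Gas6 or protein S. Mertk (Entrez 17289; GRCm38 chromosome 2, 128698956 to 128802894) is the main uptake receptor of macrophages. It stood at 4.62, 4.70, 4.79 and 4.87 log2 CPM in the saline libraries and at 4.49 to 4.82 in the dexamethasone libraries, with a median of 4.56. Of the 9 dexamethasone libraries, 7 lay below the lowest saline library, and library 4 stood above the others at 4.82. The log2 fold change was -0.16 ± 0.063 (SE), with a 95% confidence interval from -0.29 to -0.023 (adjusted p 0.0508, limma). Without dexamethasone library 4 it was -0.19 (adjusted p 0.0106, limma). Leaving out saline library 1 gave -0.20 (adjusted p 0.0256, limma), and leaving out saline library 5 gave -0.12 (adjusted p 0.170, limma). On this log2 CPM scale the interval does not include a rise of Mertk messenger RNA. The deposited scaling used library sizes of 0.876 to 1.00 times the recovered reads in saline libraries. In dexamethasone libraries they were 0.990 to 1.10 times the recovered reads. The difference per recovered read was not tested, so a rise on that scale is not excluded. In bulk tissue, a lower share of cells of a type and less RNA per cell cannot be told apart, here and in the results that follow.

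Axl (Entrez 26362; chromosome 7, 25757273 to 25788705) is the TAM receptor of inflamed tissue, present on macrophages, fibroblasts and vascular cells. The saline libraries were at 7.48, 7.76, 7.53 and 7.57 log2 CPM. The dexamethasone libraries ran from 7.51 to 7.92, with a median of 7.82. Of these, 5 lay above the highest saline library, and the other 4 lay within the saline range, library 7 near its low end. The log2 fold change was 0.18 ± 0.070 (SE; adjusted p 0.0475, limma). The call ended in 10 of the 13 fits that left out 1 library. It held without saline library 2, dexamethasone library 1 or dexamethasone library 7, and the log2 fold change ran from 0.14 to 0.24, with saline library 1 and saline library 2 left out in turn.

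Tyro3 (Entrez 22174; chromosome 2, 119797733 to 119818104), best known in brain and testis, was the least abundant of the 10, with 106 to 232 reads per library. It stood at 2.49 ± 0.37 log2 CPM in saline and 2.53 ± 0.17 in dexamethasone libraries (SD, n = 4 and 9). Its log2 fold change of 0.046 had a 95% confidence interval from -0.24 to 0.34, so neither direction was detectable. The 4 saline libraries alone ran from 2.05 to 2.81 log2 CPM, a range that held every dexamethasone library.

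The balance of the first pair of receptors was compared within each library, where scaling between libraries cancels. The log2 ratio of Axl to Mertk was 2.84 ± 0.16 in saline and 3.18 ± 0.14 in dexamethasone libraries (SD, n = 4 and 9). It was above the highest saline library in 8 of 9 dexamethasone libraries. The difference of 0.33 had an exact two-sided permutation p of 0.0028, or 0.00559 adjusted over the 2 ratios computed. The smallest p this design can give is 0.0014, and leaving out single libraries gave differences from 0.29 to 0.41. These ratios were chosen after the values of the genes were seen, and their p-values do not account for that choice.

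Among the bridging molecules, Gas6 and Pros1 encode vitamin K dependent proteins that bind phosphatidylserine with a carboxylated domain. Gas6 serves all 3 TAM receptors, whereas protein S, also an anticoagulant cofactor of plasma, serves Tyro3 and Mertk. Pros1 (Entrez 19128; chromosome 16, 62854307 to 62929346) was at 5.44, 5.82, 5.59 and 5.84 log2 CPM in the saline libraries and at 5.89 to 6.13 in the dexamethasone libraries, with a median of 6.00. All 9 dexamethasone libraries were above every saline library, by a narrow margin between saline library 5 and dexamethasone library 8. The log2 fold change was 0.34 ± 0.069 (SE; adjusted p 0.000771, limma).

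Gas6 (Entrez 14456; chromosome 8, 13465374 to 13494490) was at 8.10, 8.23, 8.08 and 8.43 log2 CPM in saline and ran from 8.22 to 8.65 in dexamethasone libraries, with a median of 8.32. Only 2 dexamethasone libraries exceeded the highest saline library. Its log2 fold change of 0.14 ± 0.078 (SE) did not pass (adjusted p 0.147, limma), but without saline library 5 it was 0.22 (adjusted p 0.031, limma). The log2 ratio of Pros1 to Gas6 went from -2.54 ± 0.11 to -2.33 ± 0.12 (SD, n = 4 and 9), a difference of 0.20 with an exact two-sided permutation p of 0.0126, the same after adjustment over the 2 ratios. It exceeded the highest saline value in 7 of 9 dexamethasone libraries.

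Mfge8 (Entrez 17304; chromosome 7, 79133768 to 79149060), or lactadherin, joins phosphatidylserine to the integrins alpha-v beta-3 and alpha-v beta-5. It stood at 6.79 ± 0.12 log2 CPM in saline and 6.82 ± 0.097 in dexamethasone libraries (SD, n = 4 and 9). The 95% confidence interval of its fold change ran from 0.933 to 1.11. Elmo1 (Entrez 140580; chromosome 13, 20090596 to 20608353), the adaptor that with Dock proteins activates Rac below several uptake receptors, stood at 4.42 ± 0.16 log2 CPM in saline and 4.41 ± 0.090 in dexamethasone libraries (SD, n = 4 and 9). The interval of its fold change ran from 0.899 to 1.10.

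The remaining 3 receptors carried the large differences. Stabilin 1, encoded by Stab1, is a scavenger receptor of reparative macrophages and sinusoidal endothelium that binds phosphatidylserine directly. Cd36 takes up fatty acids and oxidised lipids and binds thrombospondin; muscle fibres, capillaries and fat cells express it as well as macrophages. Lrp1 is a giant endocytic receptor of macrophages, fibroblasts and smooth muscle that recognises calreticulin on dying cells. Pros1, described above, rose with them, and the 250 bases before the RefSeq start site of these 4 genes are shown because their transcripts were the ones higher in every treated mouse. Sequences are from RefSeq on GRCm38.p6, written 5′ to 3′ on the gene's strand. Capitals mark matches on either strand to a GC box (GGGCGG, bound by Sp1-type factors) or to an ETS core (GAGGAA, the kind of site bound by the myeloid factor PU.1).
Stab1, chr14:31168642-31168891, minus strand: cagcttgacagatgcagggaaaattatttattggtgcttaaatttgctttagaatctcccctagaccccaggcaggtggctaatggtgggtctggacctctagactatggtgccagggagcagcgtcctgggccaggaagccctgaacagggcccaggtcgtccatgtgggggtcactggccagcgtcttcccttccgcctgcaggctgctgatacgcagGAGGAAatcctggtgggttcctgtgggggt
Cd36, chr5:17835897-17836146, minus strand: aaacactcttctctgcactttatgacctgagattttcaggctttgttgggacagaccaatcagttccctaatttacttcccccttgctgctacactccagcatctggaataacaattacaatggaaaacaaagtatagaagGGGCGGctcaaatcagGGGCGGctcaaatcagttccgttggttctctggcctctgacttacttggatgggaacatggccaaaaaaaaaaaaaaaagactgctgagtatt
Lrp1, chr10:127621149-127621398, minus strand: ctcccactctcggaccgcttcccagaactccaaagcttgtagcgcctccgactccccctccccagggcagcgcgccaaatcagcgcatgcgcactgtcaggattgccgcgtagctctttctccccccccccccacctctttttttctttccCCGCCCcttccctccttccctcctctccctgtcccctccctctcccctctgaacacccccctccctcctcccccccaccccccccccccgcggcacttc
Pros1, chr16:62854057-62854306, plus strand: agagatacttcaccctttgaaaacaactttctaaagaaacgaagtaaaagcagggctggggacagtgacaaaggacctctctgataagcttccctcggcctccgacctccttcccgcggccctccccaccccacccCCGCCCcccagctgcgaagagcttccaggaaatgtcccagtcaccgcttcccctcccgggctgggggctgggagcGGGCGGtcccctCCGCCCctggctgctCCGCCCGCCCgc

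All 10 genes matched the RefSeq promoter table, with 1 window each except Elmo1, which has a pair of start sites. A GC box stood in a window of 9 of the 10 genes, all but Stab1, against 32.7% of the 32851 windows of the table. The windows of these genes were also often rich in G and C, from 43.2% to 73.2% against a median of 52.4% over all windows. The ETS core was in the windows of Axl, Mfge8 and Stab1, against 23.3% of all windows. A glucocorticoid receptor half-site (AGAACA) was in the window of 0 of the 10 genes, against 16.1% of all windows, and the AP-1 site (TGANTCA) in 0 against 6.75%. No window of the 10 held the full palindromic glucocorticoid response element, the direct repeat of PPAR and RXR (spacing 1) or that of LXR and RXR (spacing 4), which stood in 3, 11 and 5 of all windows. The full element contains the half-site at both ends; the other motifs do not contain each other. Such matches describe letters in a short window and say nothing of a factor's binding, and most glucocorticoid receptor sites lie far from start sites. The RefSeq start of Cd36 lies inside the longer GENCODE gene, which has further start sites upstream. In GENCODE the Tyro3 window overlaps exons of Tyro3 itself. The Elmo1 window that starts at 20472740 overlaps exons of Elmo1 and Gm32036. Motif matches and base content of these windows are thus partly those of transcribed sequence.

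Cd36 (Entrez 12491; GRCm38 chromosome 5, 17781690 to 17888801) was at 7.65, 7.42, 7.33 and 7.11 log2 CPM in the saline libraries. The dexamethasone libraries ran from 8.06 to 8.85, with a median of 8.31, all 9 above the highest saline library. The rise of 0.96 ± 0.13 on the log2 scale (SE; adjusted p 2.35e-05, limma) was the largest of the 10 genes. Dexamethasone library 4 was the highest, and without it the log2 fold change was 0.89. Cd36 was also the only one of the 10 for which saline library 1 was the highest saline library.

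Stab1 (Entrez 192187; chromosome 14, 31139013 to 31168641) was at 7.34, 7.61, 7.63 and 7.86 log2 CPM in saline libraries and at 8.05 to 8.51 in dexamethasone libraries, with a median of 8.34. Again all 9 treated mice exceeded every control. The log2 fold change was 0.73 ± 0.10 (SE; adjusted p 3.40e-05, limma).

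Lrp1 (Entrez 16971; chromosome 10, 127538161 to 127621148) was at 8.85, 9.12, 9.02 and 9.10 log2 CPM in saline libraries and at 9.45 to 9.92 in dexamethasone libraries, with a median of 9.73. The groups were again apart, with no treated mouse at or below a control. The log2 fold change was 0.67 ± 0.085 (SE; adjusted p 1.51e-05, limma). The calls of Cd36, Stab1, Lrp1 and Pros1 each held in all 13 fits that left out 1 library.

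Several cell type markers moved in the same libraries, and their part in these results was not tested beyond the fits below. All 4 adipocyte markers, Adipoq, Plin1, Cidec and Lep, rose, with a summed level of 153 to 274 CPM in saline and 229 to 571 CPM in dexamethasone libraries. Of 5 resident macrophage markers 4 rose (Lyve1, Folr2, Cd163 and Mrc1), with sums of 197 to 253 and 427 to 821 CPM. Of 8 general macrophage markers 3 rose and 1 fell, with overlapping sums of 1200 to 1825 and 1544 to 1673 CPM. Of 5 monocyte markers 2 rose and 2 fell, with sums of 76.4 to 113 and 132 to 193 CPM, and of 6 neutrophil markers 1 rose and 2 fell. Of 5 dendritic cell markers 3 fell (Flt3, Clec9a and Xcr1) and 0 rose, with sums of 17.9 to 22.2 CPM in saline and 13.9 to 17.4 CPM in dexamethasone libraries, which did not overlap. Myofibre markers summed to 94674 to 141517 CPM in saline and 59851 to 90826 CPM in dexamethasone libraries, and 1 of 6 (Mylpf) fell. Of 6 endothelial markers 1 fell, with sums of 261 to 310 and 257 to 299 CPM. The fibroblast list had sums of 4825 to 6872 and 4523 to 6720 CPM, and 2 of its 6 genes (Dpt and Lum) fell. No gene of these lists was at 0 reads in any library. Timd4, of the resident macrophage list, and Pecam1, of the endothelial list, are also counted among the other uptake genes below.

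With the mean of the macrophage markers as a covariate, the log2 fold changes of Cd36, Stab1 and Lrp1 were 1.08, 0.61 and 0.62, all called. With the myofibre mean they were 1.06, 0.51 and 0.50, all called, while Pros1 was at 0.19 (adjusted p 0.0854, limma). With the adipocyte mean Cd36 went from 0.96 to 0.56 (adjusted p 0.0129, limma), Stab1 and Lrp1 were called at 0.57 and 0.51, and Pros1 was at 0.24 (adjusted p 0.10, limma). Axl passed with none of these means. With the resident macrophage mean the values were 0.52 for Cd36, 0.51 for Stab1 and 0.48 for Lrp1, and none of the 10 genes passed. In that last fit 1110 of all genes were called. The resident macrophage mean was higher in the 9 treated mice than in every control and the myofibre mean was lower in all 9, while the adipocyte mean exceeded every control in 8 of the 9. These 3 means thus largely repeat the groups, and what they share with the groups cannot be told apart in these fits, including the calls of Cd36, Stab1 and Lrp1 and the missing call of Pros1. The adipocyte and resident macrophage fits were added after seeing the data.

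**Figure D3:**
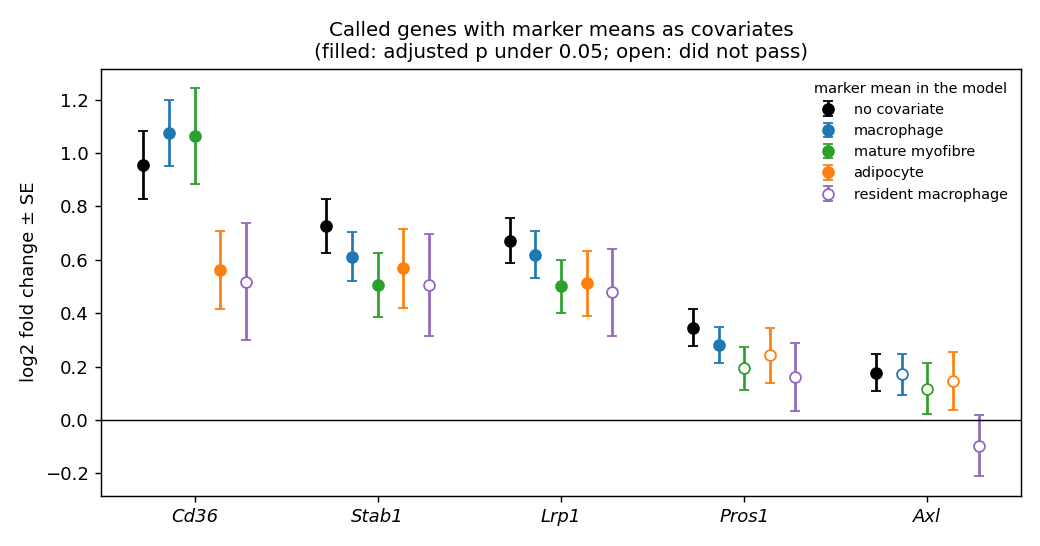
Log2 fold change with its SE for the 5 called genes, without a covariate and with the mean of each of 4 marker lists in the model; filled points passed an adjusted p of 0.05. Cd36, Stab1 and Lrp1 lie between 0.48 and 1.08 throughout, Cd36 is lowest with the adipocyte and resident macrophage means, and Axl is at -0.096 with the latter.

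Levels of different genes were compared as CPM per kilobase of exon, over the union of GENCODE exons. Gas6 was the most abundant of the 10 in both groups, at 117 ± 13.5 CPM per kilobase in saline and 129 ± 12.3 in dexamethasone libraries (SD, n = 4 and 9). In saline Cd36 came next at 46.8 ± 7.18, then Axl at 38.3 ± 3.34, Lrp1 at 29.5 ± 2.40, Mfge8 at 23.6 ± 1.86 and Stab1 at 19.1 ± 2.81. Pros1 stood at 12.6 ± 1.63, Mertk at 6.20 ± 0.472, Elmo1 at 1.71 ± 0.178 and Tyro3 at 0.926 ± 0.228. Cd36 and Axl, and Mfge8 and Stab1, were the neighbours in this order whose libraries overlapped. In dexamethasone libraries Cd36 reached 91.2 ± 17.2 and its highest library overlapped Gas6. There Lrp1, at 47.1 ± 5.02, came before Axl, at 43.4 ± 3.58, and Stab1, at 31.6 ± 3.80, before Mfge8, at 24.1 ± 1.62, both pairs with overlapping libraries. Mertk was thus 8th in either group, below Axl in every library.

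The libraries themselves differed across these genes. Saline library 1 was the lowest saline library for 8 of the 10, and saline library 5 the highest for 6. Among treated mice, number 4 was highest for 5 of the 10 (Mertk, Axl, Gas6, Stab1 and Cd36) and the lowest for Tyro3. Libraries held 25531487 to 34942266 recovered reads. Exons of 3 of the genes overlap those of a gene on the opposite strand in GENCODE: Gas6 with Tmem255b and Stab1 with Nt5dc2 over 1.33% and 1.09% of their exon length, and Elmo1 with Gm32036 over 3.20%. Whether reads were counted by strand is not stated in the labels. The genes whose centred profile over the 13 libraries was closest to that of Mertk were Nsrp1, Abcc10 and Rnasek, with root-mean-square differences of 0.060, 0.065 and 0.070 log2 units among 12518 candidates.

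Of 81 other measured genes of apoptotic cell uptake, 36 rose and 8 fell (44.4% and 9.88%, against 25.2% and 22.9% of all genes). Their median log2 fold change was 0.15. The lists of these genes were chosen with earlier results of these data known, and no set test was run. Among 17 further uptake receptors 12 rose and 2 fell. Msr1, the class A scavenger receptor of macrophages, averaged 3.81 ± 0.32 log2 CPM in saline and 5.48 ± 0.21 in dexamethasone libraries (SD, n = 4 and 9), a 3.18-fold rise (adjusted p 1.98e-07, limma). Megf10, an engulfment receptor also known in satellite cells, rose 2.12-fold. Itgav, the alpha-v integrin chain that Mfge8 binds, rose 1.38-fold. Scarf1, an endothelial scavenger receptor for C1q-coated cells, was 1.42-fold lower. Stab2, the paralogue of Stab1, rose 1.72-fold, and Olr1, a receptor for oxidised lipoprotein of low level here (-1.43 log2 CPM in saline), 3.35-fold. Cd300a, the other receptor of this list that fell, was 1.28-fold lower. Timd4, Trem2 and Itgb3 did not pass, at log2 fold changes of -0.34, -0.25 and -0.28. The choice of Stab2, Olr1, Cd300a, Timd4, Trem2 and Itgb3 was made with their values in view.

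Among 10 further bridging molecules and opsonins 5 rose and 0 fell (50% and 0%, against 25.2% and 22.9% of all genes). Thbs1, which encodes the thrombospondin that joins dying cells to Cd36 and alpha-v integrin, was at 5.78, 5.81, 6.76 and 7.06 log2 CPM in saline libraries and at 8.51 to 9.02 in dexamethasone libraries. This 5.38-fold rise (adjusted p 2.21e-07, limma) was the largest in the list, and all 9 treated mice exceeded every control. Anxa1, a phosphatidylserine-binding annexin, rose 1.80-fold, and Calr, the calreticulin that Lrp1 recognises, 1.56-fold. Lgals3, a galectin that Mertk can bind, rose 1.33-fold. The C1q chains C1qa, C1qb and C1qc, which did not pass and were named after their values were seen, had log2 fold changes of 0.0050, 0.014 and -0.0075.

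Both proteases that shed TAM receptors from the cell surface rose: Adam10 1.29-fold and Adam17 1.12-fold. The call of Adam17 ended without saline library 1 (log2 fold change 0.12) or saline library 2 (0.15), with adjusted p 0.0753 and 0.0581 (limma). The enzymes of vitamin K dependent carboxylation, on which Gas6 and protein S rely, had log2 fold changes of 0.087 for Ggcx and -0.057 for Vkorc1, and neither passed.

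Of 14 genes of the engulfment machinery 7 rose and 2 fell (50% and 14.3%, against 25.2% and 22.9% of all genes). Crk, an adaptor upstream of Dock proteins, rose 1.34-fold, Elmo2, a relative of Elmo1, 1.22-fold, and the ubiquitous GTPase Rac1 1.18-fold. Rac2, the GTPase of blood cells, was 1.33-fold lower. The lymphocyte marker list, all of whose 6 genes fell, went from summed levels of 18.9 to 24.0 CPM in saline to 2.25 to 7.52 CPM in dexamethasone libraries; its part in the value of Rac2 was not tested.

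Of 5 genes of phosphatidylserine exposure 4 rose and 0 fell (80% and 0%, against 25.2% and 22.9% of all genes). Among them were the flippase subunits Tmem30a (1.28-fold) and Atp11a (1.26-fold), which return the lipid to the inner leaflet, and the scramblase Ano6 (1.12-fold), which exposes it. Xkr8, the caspase-activated scramblase of dying cells, had a log2 fold change of -0.18 and did not pass; it was named after its value was seen.

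Of 8 genes for find-me signals and their receptors 2 rose and 0 fell (25% and 0%, against 25.2% and 22.9% of all genes). The share that rose is near that of any gene. Sphk1, a sphingosine kinase, rose 2.09-fold and Cx3cl1, a chemokine released by dying cells, 1.69-fold. S1pr1, a receptor for the sphingosine lipid, and Panx1, the channel that releases nucleotides, did not pass, at log2 fold changes of -0.20 and 0.19. Without dexamethasone library 4 both passed, at -0.26 and 0.21, and Panx1 also without saline library 5, at 0.25. Of 5 genes of do-not-eat-me signals 1 rose and 1 fell (20% each, against 25.2% and 22.9% of all genes). Cd47, which holds phagocytes back, rose 1.17-fold, and Siglecg, a sialic acid receptor of B cells, was 4.36-fold lower alongside the lymphocyte markers given above. Cd24a and Pecam1 did not pass, at log2 fold changes of 0.27 and -0.13; without dexamethasone library 4 Pecam1 was called lower, at -0.16.

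Of 10 nuclear receptor and lipid efflux genes 3 rose and 2 fell (30% and 20%, against 25.2% and 22.9% of all genes). These shares are near those of any gene. Nr1h3, which encodes the sterol receptor LXR alpha that is known to act on Mertk, rose 1.26-fold, and Tgm2, a transglutaminase of uptake, 1.37-fold. Abcg1, a cholesterol exporter, was 1.36-fold lower and Rxrb, a partner receptor, 1.18-fold lower. Of 8 genes of phagosome processing 1 fell and 0 rose (12.5% and 0%, against 22.9% and 25.2% of all genes). Cybb, the catalytic NADPH oxidase subunit, was 1.37-fold lower. Rubcn, Uvrag and Rab5a of that list did not pass, with log2 fold changes of -0.069, -0.082 and 0.13.

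**Figure D4:**
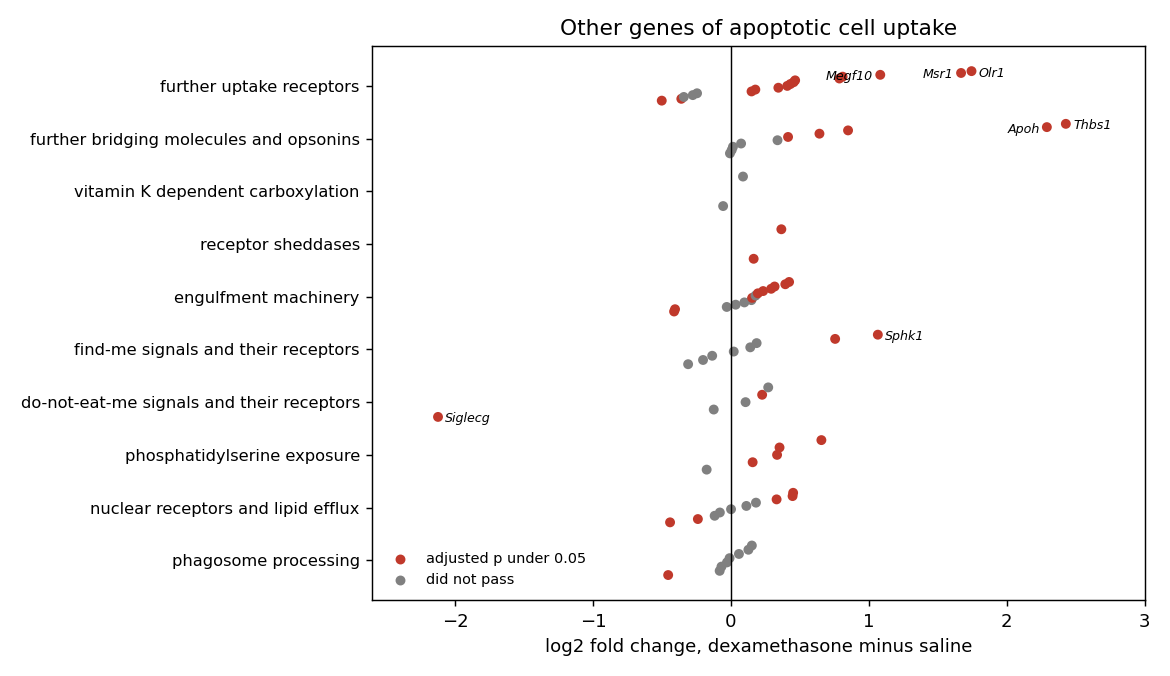
Log2 fold change of dexamethasone against saline for 81 other genes of apoptotic cell uptake, 1 point per gene, grouped by role; red points passed an adjusted p of 0.05. Of the 44 red points 36 lie right of 0, with Thbs1 farthest at 2.43, and 8 lie left, with Siglecg farthest at -2.12.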

How the data were processed

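Polyadenylated RNA was made into stranded libraries, per the labels' protocols. Reads were counted with featureCounts 2.0.1 on mm10 and handled with limma 3.50.1, per the submitters' processing notes; neither the aligner nor a filter for low genes is given in the sources used here. Log2 CPM per mouse were deposited by the authors, together with their own comparison as log2 fold changes and p-values. The table normalised without the excluded mouse (14911 genes) was used; 1 column, that of this mouse, was left out of the other table (14970 genes). Each value gave back a whole read count (100% within 0.01), with an offset of 0.5 reads, so folds of low genes are understated.

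The groups were compared in limma 3.58.1 (R 4.3.3) with a trend on mean level and two-sided tests, at 0.05 after Benjamini-Hochberg adjustment over all genes. No set test was run. Exon lengths, positions and overlaps came from GENCODE M21 (GRCm38, the build of mm10). The 10 genes, the other lists and the tests were chosen with earlier results of these data known. Named genes were the 10 members, and in each other list, among genes averaging 0 log2 CPM or more, the up to 4 with the lowest adjusted p (1 of these is not reported here). The 3 most like profiles were taken for Mertk among genes averaging 1 log2 CPM or more; no called member had an absolute log2 fold change of at least 1. Havcr1, Adgrb1 and Mbl2 were listed but were not among the 14911 genes measured. On simulated data for this comparison over 14911 genes, the model recovered 94 of 100 genes with a log2 change of 1 and 73 of 100 with one of 0.5, with 6 false among 173 calls. Only these genes were changed in the simulation, whereas 48.1% of all genes were called in the data. Its recovery therefore need not be that of the real comparison. Equal mouse numbers across groups were not taken as pairs. The check rested on 4 correlations and cannot exclude pairing. Figures were drawn with matplotlib 3.10.9.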

Additional observations from a re-analysis of the deposited data

Results flagged for a closer look

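Among 92 groups of library values (46 genes, each in saline and in dexamethasone), 5 had a library far from the others of its group by Dixon's criterion at 95%; chance alone flags about 1 group in 20. Mertk in dexamethasone library 4 stood at 4.82 log2 CPM, against 4.49 to 4.64 in the other 8. The same library was high for S1pr1, at 5.40 against 4.76 to 5.04, and for Pecam1, at 6.61 against 6.21 to 6.38. It was low for Cybb, at 5.56 against 5.81 to 5.97. Saline library 3 was low for Tgm2, at 7.30 log2 CPM against 7.51 to 7.55 in the other 3.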

How the results depend on the processing

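Apart from the adipocyte and resident macrophage covariates there were 28 alternatives, listed with earlier results of these data known. They include leaving out both saline library 3 and dexamethasone library 4, whose markers stood apart. The calls of Cd36, Stab1 and Lrp1 held in all 28, with log2 fold changes of 0.87 to 1.08, 0.51 to 0.84 and 0.50 to 0.78. Pros1 held in 27, at 0.19 to 0.40, all but the myofibre covariate. Axl kept its direction in the 28 but its call in 8, at 0.12 to 0.24 and adjusted p 0.00974 to 0.376. Mertk passed as lower in 12, at -0.21 to -0.12 over the 28 and adjusted p 0.0106 to 0.170. Single libraries left out gave 6306 to 7173 genes called (7173 with all), 4 to 5 of the 10 higher, 0 to 1 lower, and 30 to 38 and 8 to 11 of the other uptake genes higher and lower.

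The count of the 10 called lower went from 0 to 1 with the other deposited table, only genes averaging 1 log2 CPM or more, median centring, quantile normalisation, robust priors, library weights, voom, the 8 numbered libraries alone, the macrophage covariate, and saline library 3 and dexamethasone library 4 both left out; the gene was Mertk. With the myofibre covariate it was 1, Elmo1 at -0.19 (adjusted p 0.0498), with 3 higher and 4484 genes called in all. The myofibre mean was lower in all 9 treated mice than in any control. With the adipocyte covariate 3 of the 10 were higher, 20 and 5 of the other uptake genes were higher and lower, and 3486 genes were called. With the resident macrophage covariate these were 0, 9, 2 and 1110, and Axl turned to -0.096. Both of these covariates were chosen after seeing the data, and the cause of these changes was not tested. Gas6 passed with quantile normalisation (0.19, adjusted p 0.0468). Calls were 52.4% higher in the main scaling, 48.2% with median centring and 48.3% with quantile normalisation.

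For mouse numbers found in both groups (8 libraries), the replicate block gave 5959 genes called, 4 of the 10 higher and 0 lower, and 30 and 8 of the other uptake genes, against 6124, 4, 1, 33 and 7 without the block. Deviations of libraries with the same number had correlations of -0.013, -0.070, -0.031 and 0.12. Of the 4 pairs 2 correlated best with their own number. The numbers were not taken as pairs, but so few correlations cannot exclude pairing. Tyro3 had the fewest reads of the 10, 106 to 232 per library; the share of its spread that comes from depth was not tested.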
